A study of Mus musculus with 4 samples.

Results

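The 10 genes described here encode chaperones and proteases of the mitochondrion: Hspd1, Hspe1, Hspa9, Dnaja3, Trap1, Lonp1, Clpp, Clpx, Yme1l1 and Afg3l2. They were chosen by name as genes of the mitochondrial unfolded protein response, out of 18193 genes that had a probe set annotated to 1 symbol. RNA came from the tibialis anterior (TA), a limb muscle made mostly of fast fibres, and from heart of mice at postnatal day 9. All animals were on the C57BL/6J background, and the groups were MG56-knockout TA, wild-type TA, MG56-knockout heart and wild-type heart. MG56 is another name of Hhatl, whose product sits in the membrane of the sarcoplasmic reticulum of muscle. Each knockout pool held RNA of 3 mice, and wild-type RNA was pooled as well, though the sources used here do not state from how many mice. With 1 Affymetrix array of pooled RNA in each group, no replicate error or p-value can be given, and a ratio describes the difference between 2 pools only.

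Most mitochondrial proteins are made in the cytosol, cross the mitochondrial membranes unfolded and fold inside. Hspa9 (mortalin), the Hsp70 of the matrix, pulls them in and starts their folding with J-proteins such as Dnaja3, and the chaperonin barrel of Hspd1 (Hsp60) with its lid Hspe1 (Hsp10) completes it. Trap1 is the Hsp90 of the matrix. Damaged matrix proteins are degraded by the Lon protease Lonp1 and by ClpXP, in which the unfoldase Clpx feeds the peptidase Clpp, while the AAA proteases Yme1l1 and Afg3l2 work in the inner membrane. When unfolded proteins build up in mitochondria, cells can raise transcription of several of these genes, a response in which the transcription factors Atf4, Atf5 and Ddit3 (CHOP) have been implicated. Striated muscle, above all heart, is rich in mitochondria.

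Hspd1 and Hspe1 lie head to head on chromosome 1, with 0 other protein-coding genes between them, so the same stretch of DNA is upstream of both. That stretch is shown because it joins the members that make up the chaperonin. The region upstream of Dnaja3 and that upstream of Lonp1 are shown because these genes were, after Hspa9, the members with the highest knockout ratios in TA. All are from RefSeq (GRCm38.p6), 5′ to 3′, with capitals where a searched motif matched. The Hspd1-Hspe1 stretch is the 215 bases chr1:55087933-55088147 on the + strand, between 1 of the 2 annotated Hspd1 starts and the Hspe1 start. The other Hspd1 start lies inside Hspe1. The others are the 250 bases before the start, chr16:4683820-4684069 (+ strand) for Dnaja3 and chr17:56626904-56627153 (- strand) for Lonp1.
Hspd1-Hspe1: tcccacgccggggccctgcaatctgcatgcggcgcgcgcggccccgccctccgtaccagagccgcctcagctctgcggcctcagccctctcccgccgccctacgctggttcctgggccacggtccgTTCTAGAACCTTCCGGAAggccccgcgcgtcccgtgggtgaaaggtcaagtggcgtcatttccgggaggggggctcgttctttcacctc
Dnaja3: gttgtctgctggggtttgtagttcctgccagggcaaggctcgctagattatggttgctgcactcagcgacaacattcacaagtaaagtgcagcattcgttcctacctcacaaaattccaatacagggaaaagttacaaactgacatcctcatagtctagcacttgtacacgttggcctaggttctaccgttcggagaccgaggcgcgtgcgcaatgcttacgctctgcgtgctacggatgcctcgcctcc
Lonp1: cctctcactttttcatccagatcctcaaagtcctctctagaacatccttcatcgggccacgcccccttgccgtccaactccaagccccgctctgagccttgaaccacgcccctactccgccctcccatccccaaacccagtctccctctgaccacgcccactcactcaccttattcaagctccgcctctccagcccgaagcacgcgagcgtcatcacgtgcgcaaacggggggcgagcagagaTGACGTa

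The motifs were chosen with the values of the members known and were searched on both strands in the 250 bases upstream of each annotated start. Windows were at hand for 8 of the 10 members (9 windows, 2 of them for Hspd1), and Hspa9 and Afg3l2 had none. The heat shock element with 3 repeats (GAA and its reverse complement in turn, 2 bases apart) matched in 1 of the 2 windows of Hspd1, in that of Hspe1 and in 0.466% of all 32851 windows. In the stretch above it matched in 2 overlapping ways, as TTCTAGAACCTTC and as GAACCTTCCGGAA, which share the shorter element GAANNTTC. That shorter element was present in 6.69% of all windows and, among the members, again in the same windows of Hspd1 and Hspe1. Since these windows overlap, these matches are 1 piece of DNA and not separate cases. TGACGT, the core of the cAMP response element, was present upstream of Lonp1 and Trap1 and in 6.47% of all windows. TGATGNAA, written for the element bound by C/EBP and ATF factors, matched in 0 of the member windows and in 3.45% of all. Other sequences that C/EBP factors may bind were not searched. The endoplasmic reticulum stress element (CCAAT and CCACG with 9 bases between) matched in 0 of the member windows and in 0.113% of all. The member windows were 51.6 to 72.8% G and C, with a median of 60.4%, against a median of 52.4% over all windows. A match describes letters in a window and is not evidence of a bound site.

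The signal of a probe set is the brightness that the MAS5 algorithm assigns to it on a linear scale. The median of all signals, 101.3, served as the floor, and the brightest probe set of a gene stood for it. The 10 genes had 25 probe sets, of which 22 lay above the floor on all 4 arrays, 1 (for Afg3l2) on 1 array, and 2 (1 each for Hspa9 and Dnaja3) on 0 arrays. All 10 genes were measured in every comparison. The targeted gene had signals of 1078 and 5491 in knockout and wild-type TA, and of 880 and 2110 in knockout and wild-type heart. All 8 skeletal muscle markers were at least 1.5-fold higher in wild-type TA than in wild-type heart, and all 8 heart muscle markers were at least 1.5-fold lower. Summed skeletal muscle markers were 260181 in knockout and 290755 in wild-type TA, and summed heart muscle markers 252703 in knockout and 252160 in wild-type heart. Summed signals of the 5 measured dividing-cell markers were 2445 in knockout and 5766 in wild-type TA, and 2833 and 7246 in knockout and wild-type heart. The 5 leukocyte markers summed to 9118 and 7995 in TA and to 6071 and 5708 in heart, in the same order. Most of that sum came from Csf1r, at 5046 and 5044 in TA, while the neutrophil gene S100a8 read 740 and 140.6 in TA and 505.3 and 338.1 in heart. The 4 brown fat markers, which include the mitochondrial gene Cox7a1, summed to 16226 and 17941 in TA and to 16871 and 20616 in heart. Of the defining brown fat gene Ucp1, signals were 2.2 and 3.7 in TA and 30.2 and 327.9 in heart, so it passed the floor on the wild-type heart array alone. Endothelial markers (4 genes) summed to 5030 and 5600 in TA and to 8241 and 8365 in heart, and fibroblast markers (5 genes) to 109800 and 118581 in TA and to 79544 and 82121 in heart. White fat markers (3 genes) summed to 21703 and 22383 in TA and to 35661 and 33657 in heart, and red blood cell markers (2 genes, 1 of them under the floor on every array) to 181.1 and 248.2 in TA and to 662.9 and 645.1 in heart. The part of these cells in the ratios given here was not tested, and fewer cells of a type and less RNA per cell cannot be told apart in whole tissue.

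**Figure D1:**
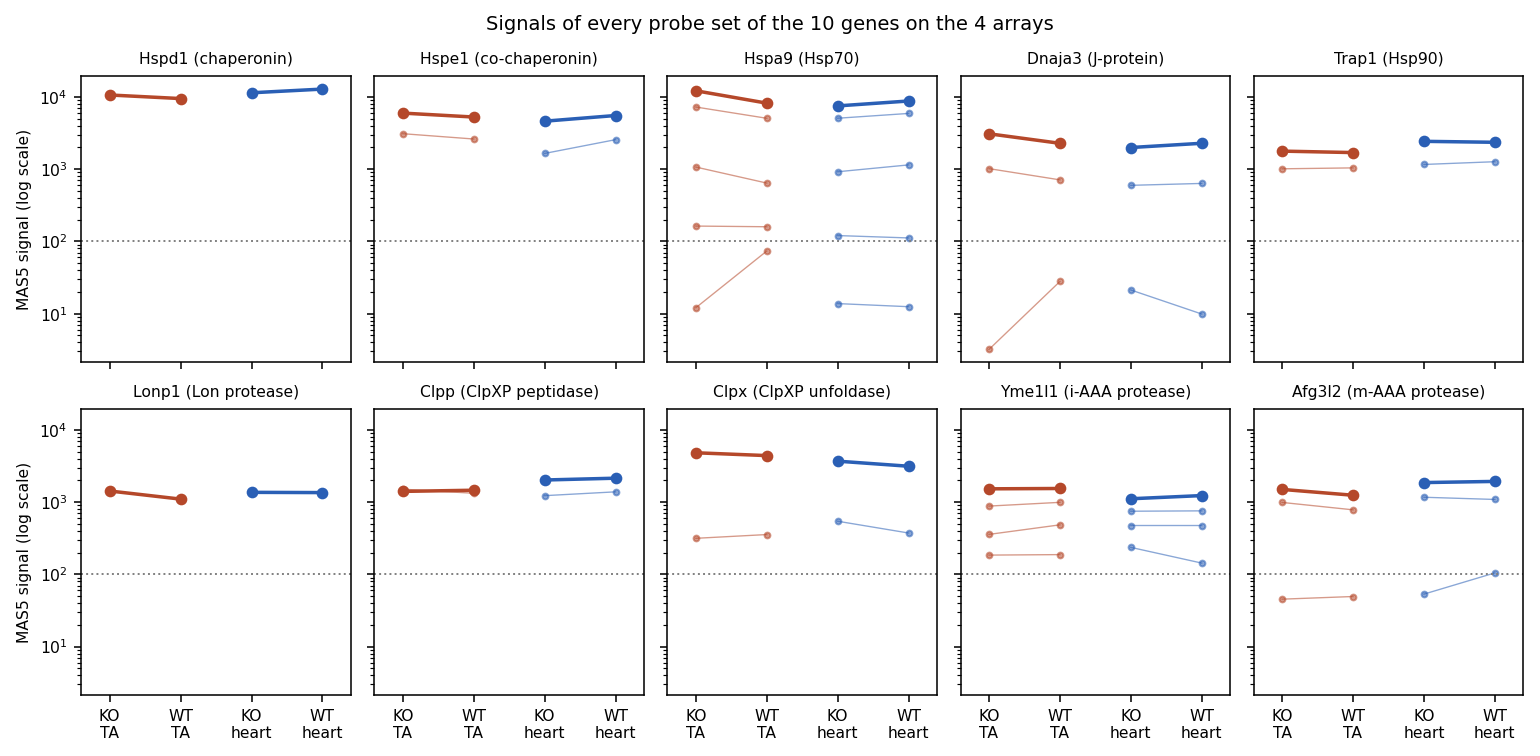
MAS5 signal (log axis) of every probe set of the 10 genes on the arrays of knockout (KO) and wild-type (WT) TA (red) and heart (blue). Thick lines are the brightest probe set of a gene, thin lines its other probe sets, and the dotted line is the floor of 101.3. Hspa9, Dnaja3, Hspe1, Lonp1 and Clpx were highest in knockout TA on their brightest probe sets. The dimmest probe sets of Hspa9 and Dnaja3 lay under the floor on every array.

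In TA, the question was whether these genes differed between the knockout and wild-type pools. The differences were largest for the matrix Hsp70 gene Hspa9, 1.48-fold higher in the knockout pool, and for its J-protein partner Dnaja3, 1.35-fold higher. The protease gene Lonp1 was 1.29-fold and the inner membrane protease gene Afg3l2 1.204-fold higher. The chaperonin genes Hspd1 and Hspe1 were 1.12-fold and 1.13-fold higher, and Trap1, Clpx, Clpp and Yme1l1 lay within 1.10-fold. Of the 10 genes, 4 were at least 1.2-fold higher, a share to be read against 17.8% of all 11528 genes measured and 13.4% of the 3550 genes at least as bright as the dimmest member. At the same fold, 0 of the 10 were lower, against 18.4% of all genes. The median log2 ratio of the 10 was 0.17, against -0.01 over all genes and -0.03 over the equally bright ones. Past 1.5-fold were 0 of the 10 in either direction, against 4.2% of all genes higher and 4.44% lower.

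Hspa9 had signals of 12166 in knockout TA, 8201 in wild-type TA, 7511 in knockout heart and 8785 in wild-type heart. Knockout TA was the highest of the arrays, and knockout heart the lowest. The log2 ratio of knockout over wild type was 0.57 in TA, higher than that of 95.4% of the genes measured. A second Hspa9 probe set had signals of 7251, 5064, 5072 and 5909 on the same arrays in that order, a log2 ratio of 0.52. Another, of a kind that can also match other transcripts, read 1070, 642.4, 921.6 and 1146, with a log2 ratio of 0.74. The remaining measured one was close to the floor, between 111.8 and 163.2, and its log2 ratio was 0.03. The brighter Hspa9 probe sets thus shared 1 order in TA, and the dim one showed next to no difference.

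Dnaja3 had signals of 3090 in knockout TA, 2281 in wild-type TA, 1994 in knockout heart and 2283 in wild-type heart. As on the brightest Hspa9 probe set, knockout TA was highest and knockout heart lowest, while the wild-type tissues were nearly equal. Both Hspe1 probe sets also had knockout TA highest and knockout heart lowest. The log2 ratio of Dnaja3 was 0.44 in TA, and 0.52 on a second probe set with signals of 1018 and 711.8. Lonp1 had signals of 1423 and 1099 in knockout and wild-type TA, and of 1363 and 1352 in knockout and wild-type heart. The wild-type TA signal of Lonp1 was the lowest of the arrays and the other signals lay close together. Lonp1 has only 1 probe set, with a log2 ratio of 0.37 in TA, so nothing on the array repeats it. Afg3l2, a subunit of the inner membrane m-AAA protease, had signals of 1497 in knockout TA and 1243 in wild-type TA. Its second probe set read 988.4 and 780.9, which gave log2 ratios of 0.27 and 0.34. It was the member just inside the threshold of 1.2-fold, with a ratio of 1.204, and the next one, Hspe1, was at 1.133.

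The chaperonin genes differed little in TA. Hspd1 had signals of 10639 in knockout TA and 9492 in wild-type TA, a log2 ratio of 0.16 on its only probe set. Hspe1 had 5972 and 5271 on its brightest probe set, and 3099 and 2616 on the other, with log2 ratios of 0.18 and 0.24. The genes that share upstream DNA thus had nearly equal ratios in TA, both under that of Hspa9. Trap1, at 1779 and 1698, and Clpx, at 4809 and 4397, had log2 ratios of 0.07 and 0.13. A dim second Clpx probe set pointed the other way, at -0.17. Clpp, the peptidase that Clpx serves, had a log2 ratio of -0.05 on 1 probe set (1405 and 1458) and of 0.19 on the other (1507 and 1323), so its probe sets did not share a direction. Yme1l1, the i-AAA protease gene, had 1525 and 1541, a log2 ratio of -0.02, and its 3 dimmer probe sets ran from -0.44 to -0.02.

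The only view of measurement error here is the disagreement between probe sets of the same gene. It leaves out differences between animals and any error that the probe sets of an array share. Over 1281 genes with at least 2 probe sets of mean signal 1000 or more, the log2 ratios of the brightest 2 differed by a median of 0.11 in TA, and by up to 0.44 in 95% of genes. The ratios of Hspd1 and Hspe1 were a little larger than that median difference, and those of Hspa9, Dnaja3 and Lonp1 were more than 3 times it. On the brightest probe sets, only that of Hspa9 was above 0.444, the bound for 95% of genes, and those of Lonp1 and Afg3l2 lay inside it. Dnaja3 lay just inside it at 0.438, and its second probe set, at 0.52, was above it. Of the 22 member probe sets above the floor on all arrays, 15 were above 0 in TA and 7 below, but they repeat 10 genes and are not separate cases. By gene, 8 of the 10 were above 0, against 48.7% of all genes measured and 45.2% of the equally bright ones. With probe sets whose name endings (_s_at, _x_at or _a_at) mark matches to several transcripts left out, 8 members were measured and 2 of them, Hspa9 and Afg3l2, were at least 1.2-fold higher, because Dnaja3 and Lonp1 had no other measured probe set. With quantile normalization, over all arrays or within the tissue, the count was 3, as the log2 ratio of Afg3l2 became 0.24 and 0.25.

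**Figure D2:**
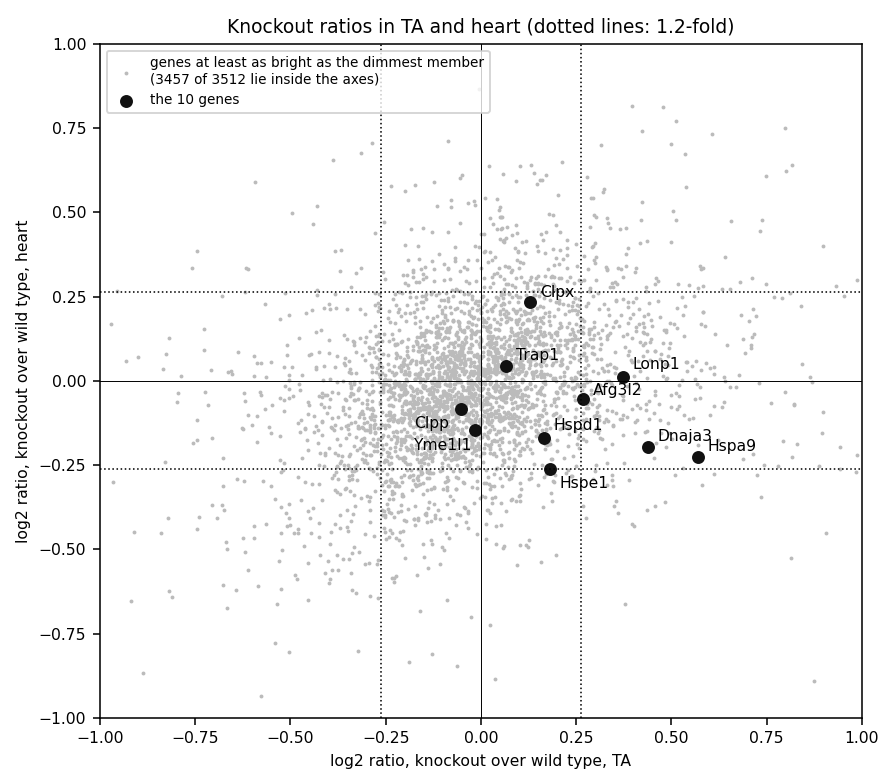
Log2 ratio of knockout over wild type in TA (horizontal) and heart (vertical) for the 10 genes (black) and for the genes at least as bright as the dimmest member (grey, those within 1 log2 unit either way). Dotted lines mark 1.2-fold. Hspa9, Dnaja3, Lonp1 and Afg3l2 lie right of the 1.2-fold line for TA, and all 10 genes lie within 1.2-fold in heart.

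In heart, the same question gave small differences, and 7 of the 10 genes had a log2 ratio below 0. Above 0 were 49.7% of all genes measured and 46.4% of the equally bright ones. The chaperonin and Hsp70 genes were lower in the knockout pool, Hspe1 by 1.199-fold, Hspa9 by 1.17-fold, Dnaja3 by 1.14-fold and Hspd1 by 1.12-fold. Clpx was the member with the highest ratio, 1.17-fold higher. The counts at 1.2-fold were 0 higher and 0 lower, against 15.6% and 16.7% of 11452 genes. Among the equally bright genes 9.21% were higher and 11.7% lower. Past 1.5-fold were again 0 of the 10, against 2.67% and 4.19% of all genes. The median log2 ratio of the 10 was -0.11, with 3 above 0 and 7 below, against -0.002 over all genes measured.

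Hspe1 was the member just outside the threshold, at 1.199-fold lower, with signals of 4616 in knockout and 5532 in wild-type heart. On its other probe set, which does not carry the ending of shared probe sets, it was 1652 and 2562, a 1.55-fold lower signal. The probe sets of Hspe1 shared a direction in heart, and their log2 ratios of -0.26 and -0.63 differed by more than the median difference of 0.11 between probe sets in heart. Hspd1 had signals of 11413 and 12839, a log2 ratio of -0.17. Hspa9 had log2 ratios of -0.23, -0.22 and -0.31 on its brighter probe sets and of 0.11 on the dim one. Dnaja3 had -0.20 and -0.09.

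Clpx had signals of 3680 in knockout and 3132 in wild-type heart, and 542.7 and 372.9 on the dimmer probe set, log2 ratios of 0.23 and 0.54. Its partner Clpp, at 2020 and 2140, had -0.08, and -0.18 on the second probe set, so the unfoldase and peptidase genes lay on opposite sides of 0 on each probe set. Lonp1, Trap1 and Afg3l2 had log2 ratios of 0.01, 0.04 and -0.05, with a second probe set at -0.13 for Trap1 and 0.10 for Afg3l2. The probe sets of those genes that had more than 1 did not share a direction in heart. Yme1l1 had 1111 and 1230, a log2 ratio of -0.15, and its other probe sets ran from -0.02 to 0.72, the last on a signal of 236 against 143.1. When the median over probe sets stood for a gene, 1 member, Clpx, was at least 1.2-fold higher in heart, with a log2 ratio of 0.39, and 1, Hspe1, was lower, at -0.45.

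The knockout ratios of TA and heart share no array and can be set against each other. The TA log2 ratio was above that of heart for 9 of the 10 genes, all but Clpx, which had a difference of -0.10. For Yme1l1 this held on its brightest probe set alone, and its other probe sets had differences of -0.44, -0.74 and -0.15. The dim Hspa9 probe set had -0.08. Over the 10802 genes measured in both tissues, 50.04% had a higher ratio in TA. The difference was 0.80 for Hspa9, 0.63 for Dnaja3, 0.44 for Hspe1, 0.36 for Lonp1, 0.33 for Hspd1 and 0.32 for Afg3l2. It was 0.13 or less for Yme1l1, Clpp and Trap1. The median difference of the 10 was 0.33, against 0.0002 over all genes, and no test of it is possible with 1 array a group.

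Among the 10160 other genes above the floor on all 4 arrays, those closest in pattern to the brightest Hspa9 probe set were Trmt6, Nbas, Nop14, Cln8 and 1500015A07Rik. Likeness was the Euclidean distance between log2 signals centred on their mean over the 4 arrays, and it ran from 0.04 to 0.06 for these genes. Trmt6, the nearest, had signals of 795.5, 517.3, 478.3 and 552.5 in knockout TA, wild-type TA, knockout heart and wild-type heart. Dnaja3 came 12th in that order with a distance of 0.10, ahead of all other members. Hspe1 was at rank 340 and Clpp, the member least like Hspa9, at rank 7288. On the other measured Hspa9 probe sets knockout heart was not the lowest array, so the ranking holds for the brightest one only. With only 4 arrays, many genes come close to any given pattern.

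Other genes of mitochondrial protein handling did not share the TA ratios of Hspa9. Of 16 measured partner chaperones and import genes, 1 was at least 1.2-fold higher and 1 lower in knockout TA, with a median log2 ratio of -0.09. Clpb, a disaggregase gene of the intermembrane space, had a log2 ratio of 0.26, the import pore gene Tomm40 of -0.28 and the import receptor gene Timm50 of -0.22. Grpel1, the nucleotide exchange factor that works with Hspa9, had signals of 4337 and 4165 in knockout and wild-type TA, a log2 ratio of 0.06, so not every part of the matrix Hsp70 system was higher. It was picked for that role after its value was seen. In heart 1 of the 16 was higher and 5 were lower, with a median of -0.16, Timm50 being at -0.38 and the import channel gene Timm17b at -0.36.

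Among 14 measured genes of other mitochondrial proteases and their scaffolds, 2 were at least 1.2-fold higher and 2 lower in knockout TA, around a median of -0.01. The higher ones were Htra2, a serine protease gene of the intermembrane space, at 0.41, and Pitrm1, whose product degrades cleaved presequences, at 0.34. Lactb was at -0.34 and Afg3l1, a close relative of Afg3l2, at -0.32. In heart 0 were higher and 2 lower (median -0.09), and Afg3l1 and Lactb had log2 ratios of -0.59 and -0.33. The Afg3l1 signal was 244.3 and 304.8 in knockout and wild-type TA and 350.1 and 528.8 in heart.

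The list of 17 genes that stand for mitochondrial content, mostly of the respiratory chain, outer membrane and citrate cycle, had a median log2 ratio of -0.13 in TA and -0.03 in heart. In TA 14 of the 17 lay below 0, while 48.7% of all genes measured lay above it. At least 1.2-fold higher was 1 gene of the 17, and 1 was lower. The higher one was Tfam, a factor that packages and transcribes mitochondrial DNA, at 0.41, and the lower one was the citrate synthase gene Cs, at -0.29. Cycs, the cytochrome c gene, was at -0.23. In heart 0 were higher and 1 lower, the mitochondrial elongation factor gene Tufm at -0.41. The members and the content genes thus had medians on opposite sides of 0 in TA and on the same side in heart.

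**Figure D3:**
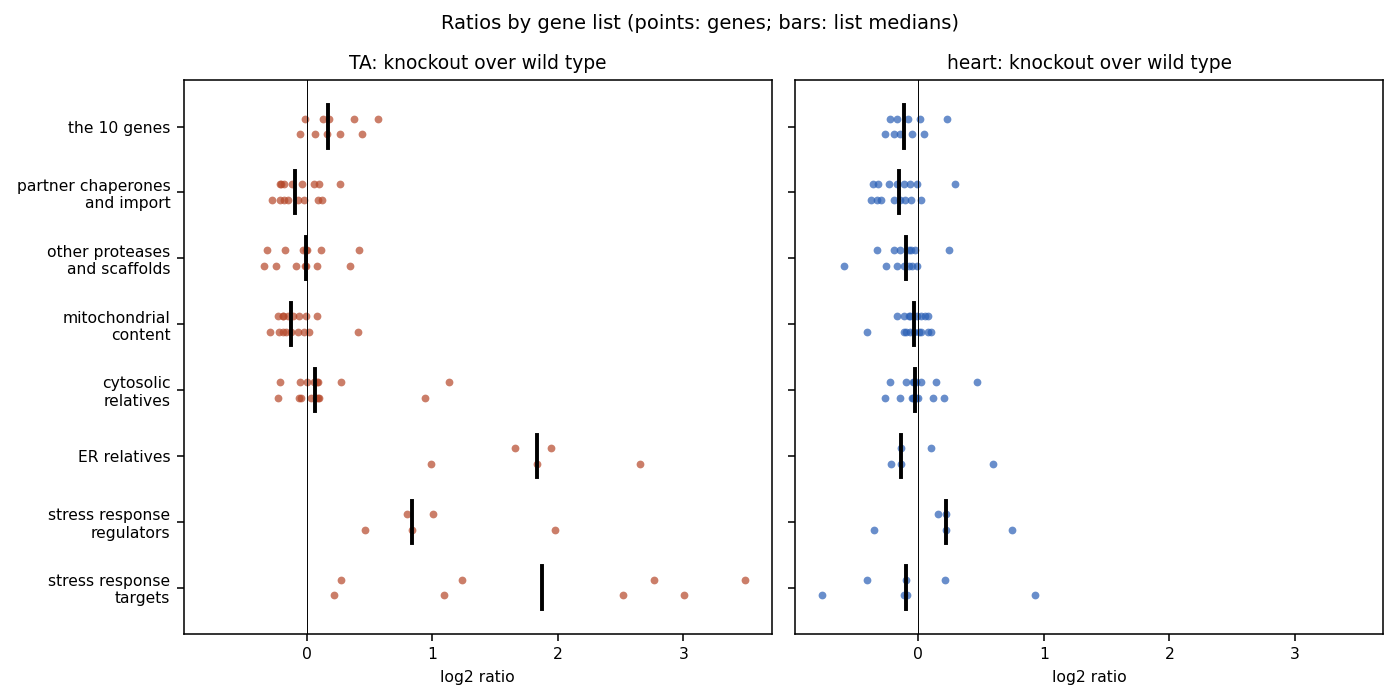
Log2 ratio of knockout over wild type in TA (left) and heart (right) for the 10 genes and related gene lists. Each point is a gene and each bar a list median. In TA the 10 genes have a median of 0.17, the mitochondrial content genes -0.13 and the ER relatives 1.83.

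Relatives of the same chaperone families in other compartments allow a comparison within families. The ER relatives stood far higher in knockout TA than the members, with 5 of 5 at least 1.2-fold higher and a median log2 ratio of 1.83. Hspa5, the ER Hsp70, had 1.94, against 0.57 for the mitochondrial Hspa9 and 0.10 for the cytosolic Hspa8. Hsp90b1, the ER Hsp90, had 1.83, against 0.07 for the mitochondrial Trap1 and 0.08 for the cytosolic Hsp90aa1. Among J-proteins Dnajb9 of the ER had 2.65, and 0.59 in heart, against 0.44 for Dnaja3 in TA. Of 16 cytosolic relatives, 3 were at least 1.2-fold higher in TA and 0 lower, with a median of 0.07, and the 8 measured subunit genes of the cytosolic chaperonin, relatives of Hspd1, ran from -0.23 to 0.09. Not all cytosolic Hsp70 genes were as flat as Hspa8 in TA. The heat-inducible Hspa1a had a log2 ratio of 1.14 and Hspa1b of 0.94, both above Hspa9, while Hspa4 had 0.28. In heart Hspa1a had a log2 ratio of 0.47. The list was divided into ER and cytosolic genes after its values were seen. Hspa8 and Hsp90aa1 were picked then as cytosolic members of their families, and the other cytosolic Hsp70 genes were named then too.

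Regulator genes linked to the mitochondrial response, most of them for transcription factors, were higher in knockout TA. Of 5 measured regulators 5 were at least 1.2-fold higher, with a median log2 ratio of 0.84. Atf5 had signals of 1772 in knockout TA, 884.3 in wild-type TA, 528 in knockout heart and 674.9 in wild-type heart. It was thus highest in knockout TA and lowest in knockout heart, with log2 ratios of 1.003 in TA and -0.35 in heart. Atf4 had 8586 and 4795 in TA, a log2 ratio of 0.84, and 0.22 in heart. Ddit3 had a log2 ratio of 1.97 in TA. In heart Cebpb, at 0.75, was the only 1 of the 5 at least 1.2-fold higher, and Atf5 the only one lower.

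Targets of the integrated stress response had a median log2 ratio of 1.87 in TA, far above that of the members, with 7 of 8 at least 1.2-fold higher. Those that encode enzymes of mitochondrial metabolism differed among themselves. Mthfd2 was at 2.52 and Aldh18a1 at 1.09, while Shmt2 at 0.27 and Pck2 at 0.22 lay below Hspa9. These enzyme genes were named after their values were seen. The pseudokinase gene Trib3 was at least 11.2-fold higher, its wild-type signal of 80.6 being under the floor, the asparagine synthetase gene Asns 8.04-fold and the hormone gene Fgf21 at least 6.78-fold. The highest of the members, Hspa9, was at 1.48-fold. In heart the median of the 7 measured targets was -0.10, with 1 higher and 2 lower, and Trib3 and Mthfd2 had log2 ratios of 0.93 and -0.77.

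In wild type, the members were on the whole slightly lower in TA than in heart. The median log2 ratio of wild-type TA over wild-type heart was -0.20, against -0.07 over 11872 genes and -0.14 for the mitochondrial content genes. Of the members, 2 were above 0 and 8 below, while 44.8% of all genes measured were above 0. Afg3l2 was the only member past 1.5-fold, 1.55-fold lower in TA (signals 1243 and 1931), and 18% of all genes were lower by that much. The count at least 1.5-fold higher was 0, against 14.5% of all genes. The wild-type TA array also enters the knockout ratio of TA, so the tissue ratio and the TA knockout ratio are not independent.

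In order, the log2 ratios of TA over heart in wild type were lowest for Afg3l2 (-0.64), followed by Clpp (-0.55), Trap1 (-0.47), Hspd1 (-0.44) and Lonp1 (-0.30). Hspa9 (-0.10), Hspe1 (-0.07) and Dnaja3 (-0.001) lay near 0, and Yme1l1 (0.33) and Clpx (0.49) were above it. The median difference between probe sets of a gene was 0.19 in this comparison, so most neighbours in that order lie closer together than probe sets of 1 gene do. The inner membrane proteases lay apart. Yme1l1 was higher in TA on all 4 probe sets, with log2 ratios from 0.03 to 0.39, while Afg3l2 was lower on its brighter ones, at -0.64 and -0.48. The ClpXP genes also lay apart, with Clpx at 4397 and 3132 in TA and heart and Clpp at 1458 and 2140. Their second probe sets, at -0.07 each, did not share that contrast. Hspa9 had probe sets from -0.83 to 0.51, the widest range among the members, so its tissue ratio depends on the probe set. The highest came from the one close to the floor, and the lowest from the one that can also match other transcripts. Its brightest probe set was at -0.10 and the next brightest at -0.22. When ratios were centred on the median of all genes, or the median over probe sets stood for a gene, or shared probe sets were left out, 0 members were past 1.5-fold.

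**Figure D4:**
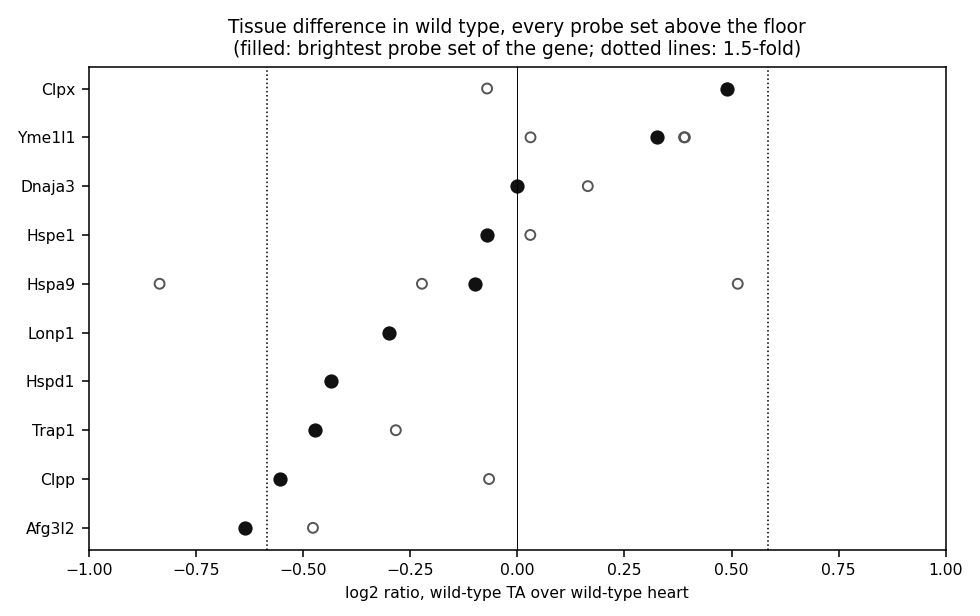
Log2 ratio of wild-type TA over wild-type heart for every probe set of the 10 genes above the floor on all arrays. Filled points are the brightest probe set of a gene, open points its other probe sets, and dotted lines mark 1.5-fold. Afg3l2 at -0.64 is the only filled point past 1.5-fold, and Hspa9 spans -0.83 to 0.51.

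Position adds a description that the choice of genes did not use. Besides the head-to-head Hspd1 and Hspe1, Lonp1 and Clpp lie on chromosome 17 with 12 protein-coding genes wholly between them, and Trap1 and Dnaja3 on chromosome 16 with 8 between them. These neighbours differed from each other in knockout TA, with log2 ratios of 0.37 for Lonp1 and -0.05 for Clpp (0.19 on its other probe set), and of 0.44 for Dnaja3 and 0.07 for Trap1. Hspd1 and Hspe1 had 0.16 and 0.18 in TA, whereas in heart Hspd1 had -0.17 and Hspe1 -0.26, or -0.63 on its other probe set.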

How the data were processed

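The authors deposited signal intensities on a linear scale for 45037 probe sets on 4 arrays, which the submitters' processing notes attribute to MAS5. The sources used here do not give its version, scaling target, detection calls or genome build. All arrays were compared as deposited, since their trimmed means (2% removed at each end) ran only from 496.35 to 496.83.

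Probe sets were named from the platform's annotation. In it 34945 had 1 gene symbol, 932 several and 9160 none, and only the first were used. Of these, 34741 matched RefSeq by gene identifier (GRCm38.p6, used for names, gene order and upstream sequence). Signals under the floor, the median of all signals (101.3), were raised to it. A gene was measured if its brightest probe set (by mean signal on the 4 arrays) reached the floor in a compared array. Ratios are log2 of the signals. Thresholds were 1.2-fold for knockout over wild type and 1.5-fold for TA over heart, with no test. Members and lists were chosen with earlier results of these data known. The text names all members and, from each of 6 related lists, up to 3 genes with the largest ratios in TA and 2 in heart. Exceptions are stated. Alternatives were 3 other scalings, 3 other floors and 3 other choices of probe sets. The computation was tested on simulated data with planted changes called at 1.5-fold, which says nothing of calls at 1.2-fold. Python 3.11.15, pandas 2.3.3 and numpy 2.4.6 were used.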

Additional observations from a re-analysis of the deposited data

Results flagged for a closer look

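The log2 ratio of knockout over wild type had opposite signs in TA and heart for 5 of the 10 genes, higher in TA and lower in heart. Signs were opposite for 40.1% of the 10802 genes measured in both tissues and for 37.8% of the 3512 equally bright ones, and higher in TA with lower in heart for 19.8% and 18.4%. With 1 array a group the difference between tissues was not tested. The ratio in TA minus that in heart was 0.80 for Hspa9, 0.63 for Dnaja3, 0.44 for Hspe1, 0.33 for Hspd1 and 0.32 for Afg3l2. In heart the ratio of Afg3l2 was -0.05, and 0.10 on its second probe set, so its sign there depends on the probe set.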

How the results depend on the processing

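The median log2 ratio of the 10 genes stayed between 0.15 and 0.19 in TA under all 9 alternatives. It stayed between -0.11 and -0.08 in heart, and between -0.27 and -0.13 for TA over heart in wild type. No median, and no gene ratio past its fold threshold in the main setting, changed sign. Smaller ratios did, those of Clpp and Clpx in TA, Lonp1, Trap1 and Afg3l2 in heart, and Hspe1 and Dnaja3 between wild-type tissues. Without probe sets that can match several transcripts, 8 members were measured: 2 were at least 1.2-fold higher in TA (4 of 10 in the main setting), 1 was lower in heart (0), 0 were 1.5-fold lower in TA than heart (1), and the median difference of TA minus heart was 0.18 (0.33). With the median over probe sets, 1 member was higher and 1 lower in heart, and 0 were past 1.5-fold between wild-type tissues, as also after centring, which shifts every ratio alike. With quantile normalization, over all arrays or within the tissue, 3 of the 10 were at least 1.2-fold higher in TA, and the median difference was 0.30. These changes, like those after centring, come from the scaling. The other differences in these counts and in the median difference come from fewer genes or another probe set by construction. Changes of the floor altered none of these values, as the members lie far above it. No paired analysis was possible because each group has 1 array. The number of arrays limits the precision, and leaving out an array was not possible.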
